A study of Mus musculus with 64 samples.

Results

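The neutrophil granule genes were a set of 8 genes chosen by name from the 5647 genes of a bulk RNA-seq table of mouse microglia, and all 8 were in the table. Mpo and Elane belong to the primary (azurophil) granules. Ltf, Ngp, Camp, Lcn2, Mmp9 and Retnlg make up what is here called the later group, of secondary and tertiary granule genes. Retnlg was placed in that group by the choice of genes, while the wider gene lists used below hold it under mature neutrophil surface and cytosol. Each library came from the brain of 1 C57BL/6J mouse, without the cerebellum, from which live CD11b+ CD45low cells were sorted. Of the 53 PBS-treated mice 26 were females (4 at 3 months, 2 at 6, 3 at 9, 4 at 12, 5 at 14, 5 at 16 and 3 at 24) and 27 were males (4 at 3 months, 4 at 6, 4 at 9, 2 at 12, 4 at 16, 5 at 19 and 4 at 24). The other 11 were females of 3, 14 and 24 months (3, 5 and 3 mice) that received 0.5 mg/kg LPS, a bacterial endotoxin, by intraperitoneal injection 2 h before they were killed. No mouse carried a transgene or a mutation according to the labels. The PBS females of 3, 14 and 24 months served both as ages of the female series and as controls of the LPS groups, so that the age and LPS comparisons shared mice.

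Neutrophils make their granule proteins one granule type after another while they mature in the bone marrow. Primary granule genes are transcribed at the promyelocyte stage, secondary granule genes at the myelocyte and metamyelocyte stages, and tertiary granule genes latest. The proteins persist in the mature cell after most of these transcripts, above all the primary ones, have been shut off. Microglia, the resident macrophages of the brain, are not known as a source of most of these proteins, and neutrophils carry more CD45 on their surface than microglia. Mpo encodes myeloperoxidase, which makes hypochlorous acid, and Elane encodes neutrophil elastase, a serine protease. Ltf encodes lactoferrin, an iron-binding protein, Ngp neutrophilic granule protein of the cystatin fold, and Camp the precursor of the antimicrobial peptide cathelicidin. Lcn2 encodes lipocalin 2, which binds bacterial iron carriers and is also an acute-phase gene of other cell types, Mmp9 encodes gelatinase B, the mark of tertiary granules, and Retnlg encodes a resistin-like secreted protein used as a marker of mature neutrophils.

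In GRCm38, 3 of the later genes lay on chromosome 9, with Camp at 109847379-109849617 on the minus strand, Ngp at 110419747-110423012 and Ltf at 111019271-111042767, both on the plus strand. The gaps from Ngp were 570130 bases to Camp and 596259 bases to Ltf. Mpo was on chromosome 11 (87793581-87804413), Elane on chromosome 10 (79886247-79888215), Lcn2 and Mmp9 on chromosome 2 (32384633-32388252 on the minus strand and 164940780-164955850) and Retnlg on chromosome 16 (48872621-48874496). RefSeq promoter sequence (GRCm38.p6) was at hand for 7 of the 8. Bases upstream of the start are shown for 4 genes, to set the primary pair beside 2 later genes of chromosome 9, and only as far as the first base of the gene in either RefSeq or GENCODE. They lie at chr11:87793534-87793580, chr10:79886062-79886246, chr9:111019042-111019270 and chr9:110419558-110419746, all on the plus strand. Capitals mark the letters AGGAAGT, a core bound by PU.1 and other ETS factors, or TTGCNNAA, a C/EBP type of motif, on either strand.
Mpo: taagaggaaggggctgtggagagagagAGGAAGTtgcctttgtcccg
Elane: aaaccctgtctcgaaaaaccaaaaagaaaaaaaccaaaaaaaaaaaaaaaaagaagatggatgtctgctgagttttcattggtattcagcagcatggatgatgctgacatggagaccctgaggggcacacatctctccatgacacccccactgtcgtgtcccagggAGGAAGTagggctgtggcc
Ltf: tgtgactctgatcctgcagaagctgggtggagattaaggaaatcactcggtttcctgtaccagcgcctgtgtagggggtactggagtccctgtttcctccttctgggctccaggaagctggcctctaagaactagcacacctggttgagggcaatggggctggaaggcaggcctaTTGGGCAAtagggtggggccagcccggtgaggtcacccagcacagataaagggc
Ngp: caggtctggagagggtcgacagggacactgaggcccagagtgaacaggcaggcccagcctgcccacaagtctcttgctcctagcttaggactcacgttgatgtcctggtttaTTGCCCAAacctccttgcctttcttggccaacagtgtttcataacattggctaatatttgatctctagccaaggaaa
Over the 250 bases before the RefSeq start, from which positions are counted, AGGAAGT was found in Mpo (at -223 to -217) and Elane (at -84 to -78) and in none of the other 5 members with a sequence. It was in 7.69% of all 32851 promoters. TTGCNNAA was found in Ltf, Ngp, Lcn2 and Retnlg, which is 4 of the 7, and in 9.56% of all promoters. The kB motif, by its usual 10-base consensus, was in none of the 7 and in 7.25% of all. The motifs were chosen with the sequences known, did not overlap in these windows, and are a description of letters only.

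The values are FPKM (fragments scaled by gene length and library size) after a batch adjustment by the authors, so that levels can be compared between genes, and depth is unknown. Among the 53 PBS libraries Ngp had the highest mean adjusted FPKM of the 8, 889 ± 672 (SD), followed by Camp at 396 ± 315, Retnlg at 247 ± 198, Ltf at 232 ± 173, Lcn2 at 118 ± 96.4, Mmp9 at 32.2 ± 23.1, Mpo at 22.1 ± 26.5 and Elane at 17.2 ± 20.9. No gap between neighbours in this order exceeded the larger of their SDs. By mean level Ngp ranked 59th of the 5647 genes and Elane 3963rd. The libraries carried the markers of microglia, since the summed level of 12 microglia markers ranged from 15494 to 28185 over the 64 libraries and P2ry12, a microglial purinergic receptor, was never under 733. The neutrophil genes Ly6g, Prtn3, Ctsg, Cebpe and Gfi1 were not among the genes analysed here. In bulk samples, fewer cells of a type and less RNA per cell cannot be told apart.

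Mice of the same sex, age and treatment differed widely in these genes. The SD of log2(adjusted FPKM + 1) within groups was 1.39 for Mpo, 1.21 for Elane, and 0.80 to 1.08 for the 6 later genes, against a median of 0.31 over all genes. The SD of Mpo was above that of 99.8% of the genes, and that of Retnlg, the lowest of the 8, above that of 98.7%. The widest single departure was a 9-month-old female in which Mpo, Elane and Lcn2 were listed at 0, Mmp9 at 2, Camp at 6, Ltf at 8, Retnlg at 27 and Ngp at 52. The other 9-month-old females had Ngp at 779 and 511.

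**Figure D1:**
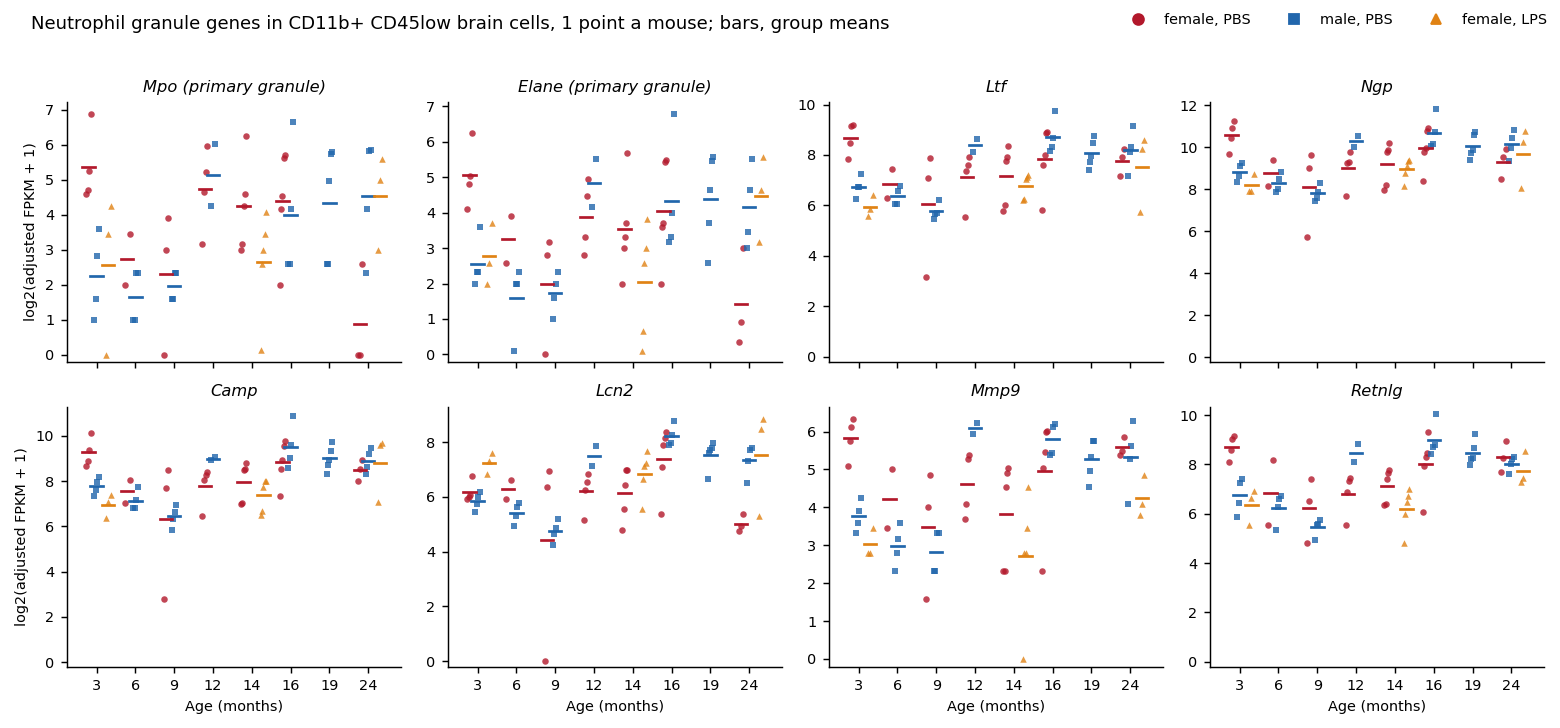
Each point is 1 mouse and each bar a group mean of log2(adjusted FPKM + 1) (y axis), by age in months (x axis), for females and males with PBS and females with LPS, in 1 panel a gene with its own y range. Mpo in 2 of the 3 PBS females of 24 months was at 0, while the later genes of the same mice were not, and the 12-month-old males lay above the 9-month-old males in all panels.

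Within groups the 8 genes varied together. For this, each mouse's log2 value was taken as its deviation from the mean of its group, and all 28 pairs were tested over the 53 PBS libraries by a two-sided permutation test within groups (100000 permutations). Every pair was correlated at an adjusted p of at most 0.00059 by Pearson's r and 0.00456 by Spearman's rho (Benjamini-Hochberg over the 28 pairs). Mpo with Elane gave r = 0.91 and rho = 0.90. Pairs of later genes had r from 0.725 to 0.982 (median 0.858), and Ltf with Ngp was the closest (r = 0.982, rho = 0.981, permutation p = 1e-05, the smallest that these permutations can give). Pairs of a primary and a later gene had r from 0.544, for Elane with Retnlg, to 0.727, for Mpo with Camp (median 0.652). Whether the kinds of pairs differed was not tested. Other pairs of genes were not put through this test, so the share of them that would pass is unknown. Without the 2 libraries farthest from the median of the first gene, the r of the 28 pairs ran from 0.465 to 0.977, and in females alone from 0.673 to 0.991. In males alone the kinds of pairs ran into each other, with r from 0.322 to 0.79 (median 0.602) for a primary with a later gene and from 0.422 to 0.951 (median 0.67) between later genes. There Elane with Camp (0.79) was above Camp with Mmp9 (0.537), and 4 pairs did not pass, Mpo with Lcn2, Mmp9 and Retnlg and Elane with Retnlg (adjusted permutation p 0.0628 to 0.177). In 21 of the 64 libraries no gene had a value between 0 and 1, a difference that the labels do not explain. Among the PBS libraries of that kind r ran from 0.634 to 0.975, and among the others from 0.446 to 0.985, where 1 pair did not pass by Pearson's r (adjusted permutation p = 0.0563).

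**Figure D2:**
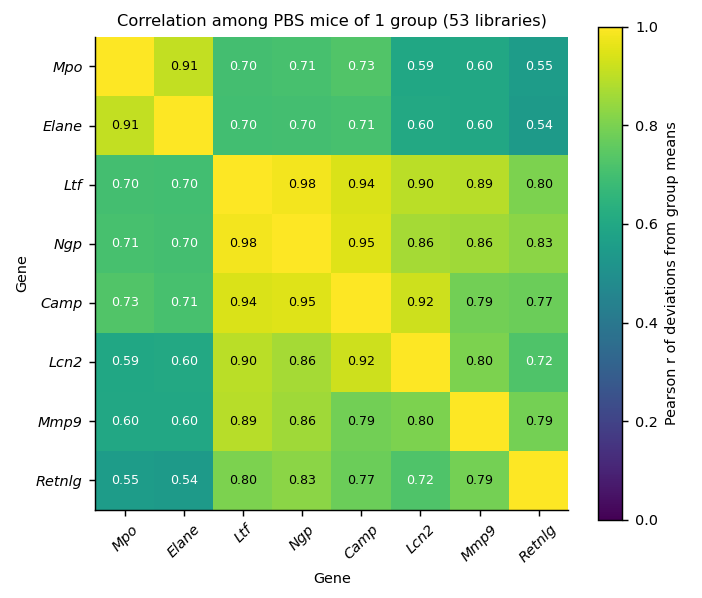
Pearson's r (colour and number, scale from 0 to 1) between the deviations of 2 genes from their group means over the 53 PBS libraries, with the 8 genes on both axes. Mpo and Elane correlated at 0.91 with each other and at no more than 0.73 with a later gene.

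The genes most like each member were found over the 53 PBS libraries with differences between groups left in. Elane was the most similar of all genes to Mpo and Mpo to Elane (r = 0.937), and the next, Ngp, was at 0.721 for Mpo and 0.792 for Elane. Ltf and Ngp were most like each other (r = 0.986), and Camp was most like Ngp (r = 0.970). Mmp9 was most like Ltf (r = 0.926). Lcn2 was most like Wfdc21 (r = 0.907), an acute-phase whey acidic protein gene of neutrophils. Retnlg was most like S100a9 and S100a8 (r = 0.952 and 0.948), the subunits of calprotectin in the neutrophil cytosol. These correlations share the libraries and the differences between groups, and are given as a description.

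In females, Mpo and Elane were lower at 24 than at 3 months, and none of the 6 later genes passed the same test. Mpo was 37, 23, 116 and 25 adjusted FPKM in the 3-month-old mice and 0, 0 and 5 in the 24-month-old mice. The ranges did not overlap. The log2 fold change was -4.49 ± 0.92 (SE), the change of largest size among the 5647 genes (adjusted p = 0.00968, limma across all genes with Benjamini-Hochberg adjustment). Elane was 32, 27, 75 and 16 at 3 months and 0.9, 0.28 and 7 at 24 months, again without overlap, and fell by 3.62 on the log2 scale (SE 0.86, adjusted p = 0.0252). Calls needed a fold above 1.5 with the adjusted p below 0.05, and by this rule 0.531% of all genes were lower at 24 months.

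The 6 later genes had smaller changes. Ltf was 563, 359, 579 and 228 at 3 months and 241, 302 and 141 at 24 months (-0.89, 95% interval -2.60 to 0.81). The log2 fold changes of the other 5 ran from -1.26 for Ngp to -0.24 for Mmp9, and the intervals of all 6 held 0. Lcn2 was the sole later gene whose groups did not overlap, with 66, 60, 108 and 63 at 3 months against 40, 30 and 26 at 24 months (log2 -1.17, adjusted p = 0.551). Groups without overlap, lower at 24 months, were found for 11.2% of all genes. With only the 3- and 24-month-old mice in the fit, Lcn2 (adjusted p = 0.00707) and Ngp (0.0474) were called lower as well. In the mice in which Mpo was at 0, Ngp was at 733 and 963, Camp at 376 and 495, and Retnlg at 496 and 303.

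Set against each other within a library, the mean log2 level of Mpo and Elane minus that of the 6 later genes was -3.00 ± 0.55 (SD, n = 4) in 3-month-old females and -6.27 ± 1.87 (n = 3) in 24-month-old females. At the 5 ages between, the group means lay from -3.77 to -2.60. Mpo and Elane together made up 2.39% ± 0.95 of the summed adjusted FPKM of the 8 genes at 3 months and 0.404% ± 0.648 at 24 months. The values of the 24-month-old mice were -7.17, -7.52 and -4.12, and the first 2 were the lowest of the 64 libraries. The members had been picked with earlier results known, so that this contrast is a description without a test.

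**Figure D3:**
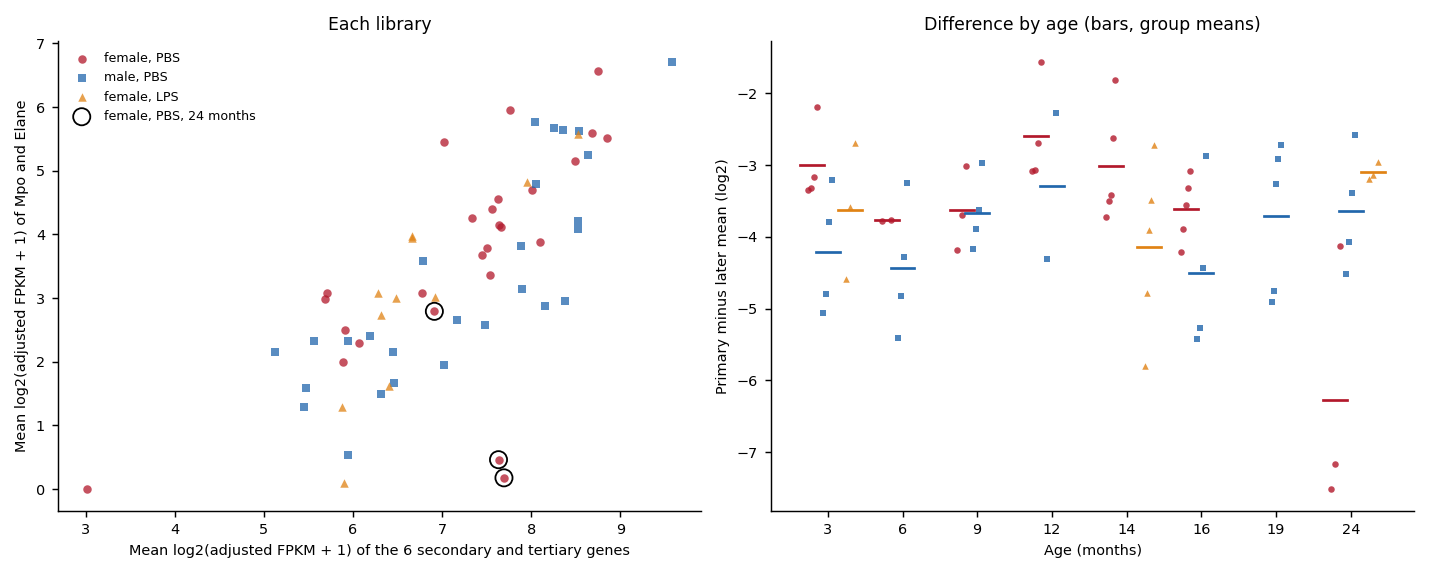
Left, the mean log2(adjusted FPKM + 1) of Mpo and Elane (y axis) against that of the 6 later genes (x axis), 1 point a library, with the 24-month-old PBS females circled; right, the difference of both means (log2) by age in months, with bars for group means. The circled points at a later mean of about 7.6 and 7.7 lie below all others of that level, and the 24-month-old females with LPS average -3.10.

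With robust moderation Elane missed the threshold (adjusted p = 0.0526). Leaving out 1 of the 24-month-old mice in which Mpo was at 0 ended both calls: Mpo stood at a log2 fold change of -4.06 with an adjusted p of 0.0905 or 0.0632, and Elane at -3.37 and -3.08 with 0.136 and 0.113. Elane also lost its call without the first, the second or the third 3-month-old mouse (adjusted p 0.0609 to 0.0768). Other cell types moved in the same comparison: the T and NK cell genes Ms4a4b (log2 2.94), Nkg7 (2.65), Cd3g (2.56) and Ccl5 (1.86) were higher, which is 4 of the 4 measured, with a summed level of 48 to 57 at 3 months and 249 to 376 at 24 months. The summed level of the 12 microglia markers was 26629 to 28185 at 3 months and 18407 to 21784 at 24 months, with 1 called lower (Fcrls, -0.76). Of the B and plasma cell genes, Jchain was higher (3.47) and Cd79b was not called (0.11), with sums of 37.4 to 91 and 85 to 186. None of 7 monocyte genes was called, and their summed level was 2604 to 4321 at 3 months and 4156 to 5981 at 24 months. The platelet gene Pf4 was at 134 to 189 and 163 to 199 and was not called. The summed level of the hemoglobin genes Hbb-bs, Hba-a1 and Hba-a2, which mark red blood cells, was 0.85 to 280 at 3 months and 0.53 to 18 at 24 months, with a median log2 change of -3.26 and none called. The part of these cells in the result was not tested.

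At the ages between, the course was not a steady decline. Retnlg alone was called at 9 months (27, 170 and 90 against 274 to 565 at 3 months, log2 -2.47 ± 0.65, adjusted p = 0.0400, with 2.32% of all genes lower) and at 12 months (161, 45, 116 and 175, log2 -1.91 ± 0.60, adjusted p = 0.0416, with 7.76% lower). At 9 months Elane (-3.05) and Camp (-2.94) both had an adjusted p of 0.0509, both passed without the second 9-month-old mouse (0.0484 and 0.0125), Camp also passed without the third (0.0449), and without the mouse with the near-empty granule genes Retnlg was at -1.75 (adjusted p = 0.152). The call at 9 months was lost without 6 of the 7 mice in turn (adjusted p 0.0563 to 0.152), the mice of 3 months and the first and last of 9 months. At 12 months it was lost without any 3-month-old mouse or the first, the second or the third 12-month-old mouse (0.0546 to 0.127). Under median-ratio scaling Retnlg passed neither at 9 nor at 12 months (0.0949 and 0.0993). At 6, 14 and 16 months no member was called, where 0.301%, 3.31% and 9.01% of all genes were. Over all 7 ages, the F-test called Mpo (adjusted p = 0.00942), Elane (0.0334) and Retnlg (0.0374), with 14.8% of all genes. Leaving out each of the 26 mice in turn never ended the call of Mpo, ended that of Elane for 5 (the first, the second and the third of 3 months and the first and the second of 24 months) and that of Retnlg for 8 (the same 5, the first and the last of 9 months and the last of 16 months).

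Between 16 and 24 months, a contrast added after the values were seen, only Mpo of the 8 genes was called. At 16 months Mpo was 3, 17, 48, 22 and 51 and Elane 3, 11, 42, 12 and 44. Mpo was lower at 24 months by a log2 fold change of -3.54 ± 0.88 (adjusted p = 0.0282, with 0.726% of all genes lower), and Elane by -2.61 ± 0.82 (adjusted p = 0.0621). Lcn2 ran from 41 to 329 at 16 months and had a log2 change of -2.36 ± 0.92 (adjusted p = 0.123), and passed with only these ages in the fit (0.0282). With robust moderation no member was called (Mpo 0.0502). The call of Mpo was lost without the fourth or the fifth 16-month-old mouse (adjusted p 0.0509 and 0.0525) or either 24-month-old mouse at 0 (0.135 and 0.107), while Elane was called without the first 16-month-old mouse (-3.12, 0.0349) or the third 24-month-old mouse (-3.40, 0.0471). The 16-month-old libraries held no values between 0 and 1, unlike the other female libraries, and this cannot be told apart from their age.

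In males most of the later genes were called higher at 24 than at 3 months, though the course between was not a steady rise. The primary pair was not called at any single age against 3 months, although its log2 changes at 24 months were at least as large as those of the called genes. At 24 against 3 months, 5 of the 8 genes rose, where 2.73% of all genes did. Lcn2 was 63, 53, 71 and 43 at 3 months and 91, 211, 158 and 219 at 24 months, without overlap (log2 1.49 ± 0.29, adjusted p = 0.00201). Mmp9 was 14, 11, 18 and 9 against 16, 77, 38 and 48 (1.55 ± 0.37, adjusted p = 0.0136), with 1 old mouse inside the young range. Ltf rose by 1.44 (adjusted p = 0.0166), Ngp by 1.32 (0.0312) and Retnlg by 1.29 (0.0378).

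Camp (1.12, adjusted p = 0.0993) was not called. Mpo was 1, 11, 2 and 6 at 3 months and 4, 57, 17 and 56 at 24 months (log2 2.30 ± 0.85, adjusted p = 0.178), and Elane 4, 11, 4 and 3 against 7, 24, 10 and 45 (1.60 ± 0.69, adjusted p = 0.291). Both pairs of groups overlapped. The primary pair made up 1.05% ± 0.64 of the summed members at 3 months and 1.90% ± 1.17 at 24 months (SD, n = 4 each).

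The later genes were first called higher than at 3 months at the age of 12 months. At 6 and 9 months none of the 8 genes was called, where 0.0% and 0.0354% of all genes were (limma; 181 and 272 genes at an unadjusted p under 0.05 and the same fold). At 12 months Lcn2 (1.65), Mmp9 (2.31) and Retnlg (1.73) were higher than at 3 months, with 0.797% of all genes. Mpo was 18 and 64 and Elane 17 and 45 at that age, above their ranges at 3 months, and neither was called. At 16 months all 6 later genes were higher, by 1.75 (Camp) to 2.38 (Lcn2), where 4.52% of all genes were. At 19 months the same 6 were higher, by 1.23 (Camp) to 1.73 (Retnlg), with 2.74% of all genes. Over the 7 ages the F-test called all 8, with 8.36% of all genes.

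Compared directly, a contrast added after the values were seen, all 8 genes were higher in the 2 mice of 12 months than in any of the 4 mice of 9 months, where 6.59% of all genes were. The 6 later genes were called, where 1.75% of all genes were called higher. Mmp9 was 4, 9, 4 and 9 at 9 months and 74 and 60 at 12 months (log2 3.26 ± 0.45, adjusted p = 3.65e-05). Retnlg was 30, 52, 46 and 47 against 454 and 275 (3.01, adjusted p = 4.5e-05), and Lcn2 18, 36, 24 and 28 against 229 and 140 (2.75, adjusted p = 2.26e-05). Elane was 3, 4, 1 and 2 against 17 and 45 (3.12 ± 0.85, adjusted p = 0.0504) and Mpo 4, 4, 2 and 2 against 18 and 64 (3.18 ± 1.04, adjusted p = 0.138). The 12-month-old group had only 2 mice, and its spread in the test was shared with the other male groups.

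The rise from 3 to 24 months was called for fewer genes without some mice: 1 gene without the fourth 3-month-old mouse or without the second or the fourth 24-month-old mouse, 3 without the first 3-month-old mouse, and 4 without the third 24-month-old mouse, when Retnlg was lost (adjusted p = 0.0770). With only these ages in the fit Camp passed as well (0.0329), and under median-ratio scaling Ngp (0.0771) and Retnlg (0.0809) did not. Mpo was called without the first 24-month-old mouse (3.04, adjusted p = 0.0484). At 19 months Lcn2 and Retnlg kept their calls without each mouse in turn, while without the fourth 3-month-old mouse Ltf, Ngp, Camp and Mmp9 lost theirs (adjusted p 0.0635 to 0.185). Ltf, Ngp and Camp also lost theirs without the second or the fifth 19-month-old mouse (0.0564 to 0.113), Ngp and Camp without the first 3-month-old mouse (0.0892 and 0.106) and Camp without the third (0.0690) or the first 19-month-old mouse (0.0725). The Lcn2, Mmp9 and Retnlg calls at 12 months were all lost without the first 12-month-old mouse (adjusted p 0.159 to 0.336) or the second (0.0522 to 0.121). Lcn2 and Retnlg also lost theirs without the fourth 3-month-old mouse (0.0576 and 0.131), and Retnlg without the first (0.109). All male libraries of 6 and 9 months and 2 of the 4 at 3 months held values between 0 and 1, while none of 12, 16 and 24 months did, so that the difference between 9 and 12 months cannot be told apart from whatever sets these libraries apart, which no label names. Among libraries without such values, the log2 changes from 3 to 24 months of the 5 called genes were 1.29 to 1.57 with none called (adjusted p 0.0819 to 0.315), on 2 mice of 3 months.

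Many other neutrophil genes were higher in males too, as seen at 16 months, where 4.52% of all genes were called higher. At that age all 10 measured genes of the secondary and tertiary granule list, which holds 5 of the members, were higher, among them Hp (haptoglobin, 2.54) and Mmp8 (neutrophil collagenase, 2.19). Of 12 genes for mature neutrophil surface and cytosol, Retnlg included, 11 were higher, among them Clec4d (a C-type lectin receptor, 3.36), Il1r2 (the decoy receptor for interleukin 1, 3.00) and Hdc (histidine decarboxylase, 2.99). Of 5 inhibitors of granule proteases, Slpi (secretory leukocyte protease inhibitor, 2.96), Serpinb1a (1.79) and Cstb (0.74) were higher. None of 4 transcription factors of granulopoiesis was called (Cebpa, Cebpd, Spi1 and Runx1), nor were Mpo (1.75, adjusted p = 0.261) and Elane (1.76, 0.145).

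Genes of other cells moved in both directions. At 16 months 6 of 7 monocyte genes were higher (Plac8 2.13, Cd44 1.89, Ly6c2 1.66, S100a4 1.53), with a summed level of 1709 to 2342 at 3 months and 4060 to 6481 at 16 months, and 4 of 4 T and NK cell genes were higher (Nkg7 2.93). Of 12 microglia markers, 4 were lower (Sall1 -1.18, Gpr34 -1.10, P2ry12 -0.97, Fcrls -0.91), with sums of 23743 to 26809 and 15816 to 19408. The platelet gene Pf4 was lower (-0.98), with 190 to 253 at 3 months and 88 to 130 at 16 months. Of the B and plasma cell genes Jchain was higher (3.71) and Cd79b lower (-0.97). The summed level of the hemoglobin genes was 16 to 292 and 0 to 271, with none called. At 24 months 5 of 7 monocyte genes and again 4 of 4 T and NK cell genes were higher. The part of these cells in the rise of the granule genes was not tested.

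By an interaction test, the aging effect on Mpo differed between the sexes, though not under every setting. The log2 change from 3 to 24 months was larger in males than in females by 6.79 ± 1.29 (interaction, adjusted p = 0.0312), and Mpo was the only gene called of all 5647 (0.0177%; 398 genes at an unadjusted p under 0.05 and the same fold). For Elane the difference was 5.22 ± 1.12 (adjusted p = 0.109), and for the 6 later genes it ran from 1.71 (Retnlg) to 2.66 (Lcn2), with adjusted p of 0.426 to 0.602. The call of Mpo was lost with robust moderation (adjusted p = 0.186), a pseudocount of 5 (0.0942) or median-ratio scaling (0.0558). It was lost under leave-one-out for 9 of the 15 mice, which were 2 each of the 3-month-old females (the first and the third), the 24-month-old females (the first and the second) and the 3-month-old males (the first and the third), and the second, the third and the fourth of the 24-month-old males (adjusted p 0.0535 to 0.164), and Elane gained a call without the third 24-month-old female (6.01, 0.0255). At each of the 6 ages that both sexes shared, no member was called between females and males, where 0.23%, 0.159%, 1.24%, 0.0%, 0.248% and 0.0885% of all genes were at 3, 6, 9, 12, 16 and 24 months. Mpo was higher in females at 3 months (log2 3.11, adjusted p = 0.0880) and lower at 24 months (-3.68, adjusted p = 0.178), neither past the threshold. All female libraries of 3 and 24 months held values between 0 and 1. Among males, 2 of the 4 libraries of 3 months and all 4 of 24 months held none. The sex difference in aging cannot be told apart from this split.

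In 3-month-old females, 5 of the 6 later granule genes were lower 2 h after LPS. In all 8 genes the 3 LPS mice lay outside the range of the 4 PBS mice, 7 lower, where 21.7% of all genes were, and Lcn2 higher, where 12.2% were. By the test 5 were called lower, where 5.08% of all genes were. Ltf was 563, 359, 579 and 228 with PBS and 57, 47 and 83 with LPS (log2 -2.72 ± 0.57, adjusted p = 0.00254). Mmp9 was 79, 53, 68 and 33 against 6, 6 and 10 (-2.79 ± 0.71, adjusted p = 0.0109). Retnlg was 565, 379, 519 and 274 against 45, 119 and 100 (-2.35 ± 0.46, adjusted p = 0.00119). Ngp fell by 2.39 (adjusted p = 0.00516) and Camp by 2.32 (0.00558).

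The primary genes had changes of the same size that missed the threshold. Mpo was 0, 10 and 18 with LPS (log2 -2.78 ± 0.96, adjusted p = 0.0596) and Elane 5, 3 and 12 (-2.29 ± 0.84, adjusted p = 0.0781). Lcn2 was 113, 192 and 158 with LPS against 60 to 108 with PBS (1.05 ± 0.60, adjusted p = 0.273). Primary minus later was -3.62 ± 0.95 (SD, n = 3) with LPS and -3.00 ± 0.55 with PBS. Mmp9 lost its call without the second LPS mouse (adjusted p = 0.0560), and Mpo gained one without the third (0.0399). With only these groups in the fit all 8 were called, Lcn2 as higher (Mpo 0.0146, Elane and Lcn2 0.00154). That fit took its spread from these groups alone, and the share of all genes it called is not given here.

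The genes of mature neutrophils went both ways in these mice. Of the 12, 4 fell, among them Retnlg and S100a9 (-2.04), and 4 rose, among them Il1r2 (2.46) and Clec4d (1.94). Of the granulopoiesis factors Cebpd (1.74) and Runx1 (1.18) rose and Cebpa (-1.04) fell. Of the 10 measured genes of the secondary and tertiary granule list 6 fell. The median change over all genes was -0.14. No red blood cell gene was called (median -0.66), and the monocyte genes Plac8 (1.97) and Cd44 (1.56) rose while Ccr2 (-1.13) fell. Of the 4 T and NK cell genes measured, Ccl5 (3.11) and Ms4a4b (1.19) rose. The summed level of the 4 was 48 to 57 in PBS mice and 173 to 278 in LPS mice. Their mean log2 level was 3.55 with PBS and 4.39 with LPS, a smaller step than that of either named gene. Of the 12 microglia markers 5 fell, with sums of 26629 to 28185 and 19309 to 23125. The part of these cells in the fall of the granule genes was not tested.

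At 14 months none of the 8 genes passed the same test, and the groups overlapped in all 8, while 2.66% of all genes had groups without overlap. Of all genes 1.81% were called there (limma; 338 at an unadjusted p under 0.05 and the same fold). Mpo was 75, 7, 8, 18 and 23 with PBS and 7, 5, 16, 10 and 0.09 with LPS (log2 -1.60, adjusted p = 0.338). Retnlg had a log2 change of -0.92 (adjusted p = 0.221) and Lcn2 of 0.69 (0.540). The 95% intervals of the 6 later genes ran from -2.32 (Mmp9) to 1.71 (Lcn2). Hdc (1.61), from the list of 12 mature neutrophil genes, and Cebpd (0.79) rose at this age too. The list as a whole did not move 1 way. Its mean log2 level was 5.18 with PBS and 5.35 with LPS, and its median sum was 4151 with PBS and 2279 with LPS.

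At 24 months Mpo, Elane and Lcn2 rose with LPS. Mpo was 0, 0 and 5 with PBS and 47, 31 and 7 with LPS (log2 3.67 ± 1.03, adjusted p = 0.0267), and Elane 0.9, 0.28 and 7 against 46, 24 and 8 (3.03 ± 0.90, adjusted p = 0.0350). Lcn2 went from 40, 30 and 26 to 455, 359 and 38 (2.51 ± 0.64, adjusted p = 0.0171). The Mpo and Elane groups did not overlap, which was so for 9.28% of all genes in that direction, and 4.27% of all genes were called higher. The PBS mice here are those of the aging comparison, so that the fall with age and the rise with LPS rest on the same 3 low controls.

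The other 5 later genes were not called at 24 months. Ltf was 241, 302 and 141 with PBS and 390, 302 and 53 with LPS (log2 -0.23), and Ngp 733, 963 and 359 against 1718, 1196 and 265 (0.37). Mmp9 was lower in each LPS mouse than in any PBS mouse, as were 17.2% of all genes, with 28, 13 and 16 against 44, 57 and 41, but missed the threshold (-1.33 ± 0.76, adjusted p = 0.254). The third LPS mouse was the lowest of its group in 6 of the 8 genes. Primary minus later was -3.10 ± 0.12 (SD, n = 3) with LPS, in the range of the younger females, against -6.27 ± 1.87 with PBS.

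All 3 calls at 24 months were lost without the second PBS mouse or without the first or the second LPS mouse, and Mpo and Elane also lost theirs without the first PBS mouse. The adjusted p was then 0.0547 to 0.144, and log2 changes stayed between 1.87 and 3.43. With only the 24-month-old groups in the fit none of the 3 passed (Mpo 0.0665, Elane 0.0745, Lcn2 0.0776) and Mmp9 was called lower (0.0384), and with robust moderation Mpo (0.0593) and Elane (0.0599) did not pass. Among genes beside the members, Clec4d (3.58), the formyl peptide receptor gene Fpr1 (3.48), Hdc (2.86), Hp (2.11) and Il1r2 (2.02) rose, as did Runx1 (1.13) and Cebpd (1.11). The lists as wholes moved less. The mean log2 level of the 10 secondary and tertiary granule genes was 6.58 with PBS and 6.92 with LPS. That of the 12 mature neutrophil genes was 5.33 and 6.37. Nkg7 (-2.16) and Ms4a4b (-1.87) of the T and NK cell list fell (summed level 249 to 376 in PBS mice and 75 to 250 in LPS mice). The hemoglobin genes had a median log2 change of 3.21, none called, with sums of 0.53 to 18 in PBS mice and 24 to 171 in LPS mice. The part of these cells in the rise of Mpo and Elane was not tested.

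**Figure D4:**
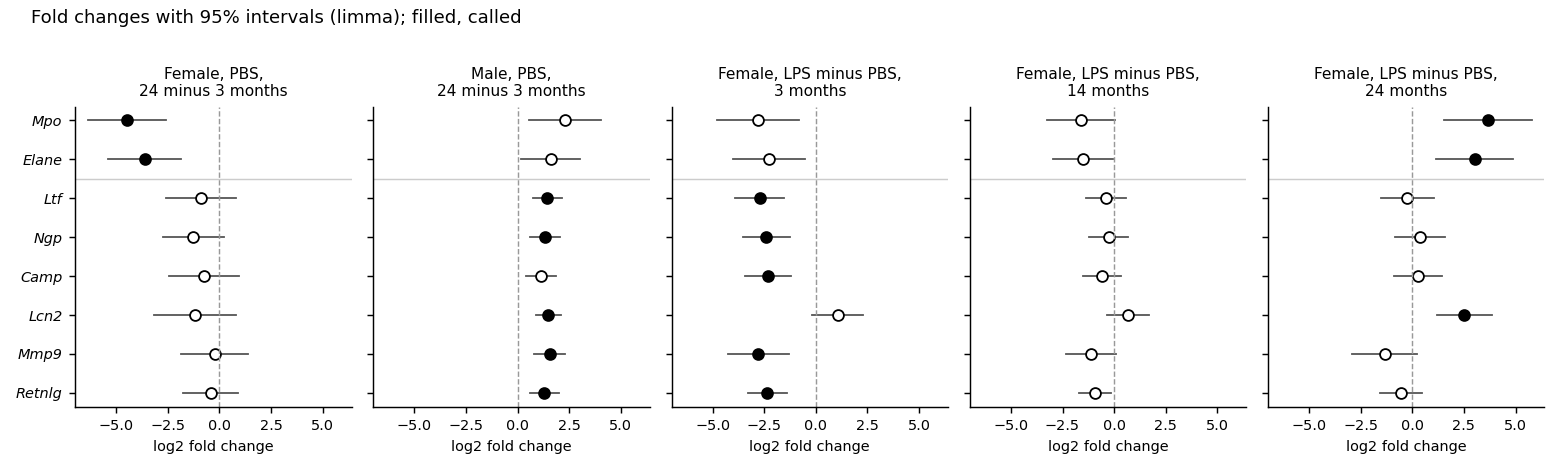
Log2 fold change (x axis) of each of the 8 genes (y axis) with its 95% interval from limma in 5 comparisons, filled where called; the grey line parts Mpo and Elane from the 6 later genes. Mpo and Elane are filled in females at 24 against 3 months (lower) and with LPS at 24 months (higher), and 5 later genes are filled in males at 24 against 3 months (higher) and with LPS at 3 months (lower).

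Whether the LPS response itself differed between ages was tested as an interaction. Between 14 and 3 months no member was called, where 0.301% of all genes were. Between 24 and 3 months no gene was called at all (0.0%; limma; 576 genes at an unadjusted p under 0.05 and the same fold). Mpo (6.45 ± 1.41, adjusted p = 0.0594) and Elane (5.31 ± 1.24, adjusted p = 0.0684) had differences of that size without passing, and 6 members reached an unadjusted p under 0.05. Without the third 24-month-old PBS mouse Mpo (7.31, adjusted p = 0.0277) and Elane (6.10, 0.0347) were called, and without the third 24-month-old LPS mouse Mpo, Ngp and Camp (7.21, 3.57 and 3.45, each 0.0403). Among the LPS mice alone, a contrast added after the values were seen, no member differed between 24 and 3 months by this test, and 0.0354% of all genes did (limma; 272 at an unadjusted p under 0.05 and the same fold).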

How the data were processed

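Per the submitters' notes and the study's methods, the authors filtered reads (SOAPnuke) and aligned them to mm10 (HISAT2 2.0.4 and, in a further step, Bowtie2 2.2.5). They estimated FPKM (RSEM 1.2.12), corrected for batches that are not named (ComBat_seq) and dropped genes averaging below 10 FPKM. The deposited values are scores, namely these adjusted FPKM as whole numbers, except 297 values, of which 290 lie between 0 and 1. They are not counts, and depth is unknown. Whether the batch adjustment changed values of 1 or less cannot be told from the table. Mpo and Elane in the first and the second 24-month-old PBS female are such values. Library sums ran from 408457 to 554459. Here log2(value + 1) was fitted over all 5647 genes with limma 3.58.1 (trend; R 4.3.3), 1 fit each for female PBS, male PBS and LPS groups and 1 for both sexes, and p-values were adjusted by Benjamini-Hochberg over all genes. Fold changes of low genes are understated by the pseudocount of 1. The fit was tested on simulated data. All 64 libraries entered. The contrasts of neighbouring ages and of LPS mice between ages, and the split by values between 0 and 1, were chosen after seeing the data. Alternatives were another pseudocount, scaling, moderation, filter, replicate block, and each mouse left out. The limma p-values judge a difference against the spread between mice, pooled over the groups of a fit. The fits held no term for batch. The members and gene lists were chosen with earlier results of these data known. From each other list, at most 4 called genes with the largest change were named for a comparison, and for each member the 3 most correlated genes were taken. Gene positions are from GENCODE vM21.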

Additional observations from a re-analysis of the deposited data

Results flagged for a closer look

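In 3 cases 1 mouse stood far from the rest of its group, by Dixon's test at the 95% level on the log2 scale over 88 combinations of gene and group; chance alone marks about 1 in 20. Elane was 0.06 in the fourth 6-month-old male, against 3 to 4 in the others. Lcn2 was 108 in the third 3-month-old female, against 60 to 66. Mmp9 was 4 in the first 16-month-old female, against 32 to 64. The change of Mpo from 3 to 24 months differed between males and females by 6.79 on the log2 scale (interaction, adjusted p = 0.0312). This difference cannot be told apart from the split of libraries by values between 0 and 1.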

How the results depend on the processing

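Counts of granule genes called depended on the moderation, on single mice and on which groups shared the estimate of spread; the cause was not tested, except that p-values left unadjusted and fits with fewer mice differ by construction. Of the single values of called genes under an alternative, 949 kept direction and call and 156 lost the call; of those not called, 1081 kept both, 82 gained a call and 6 reversed. With unadjusted p the calls went from 2 to 16 (of 40) for females of the other ages against 3 months, from 1 to 3 for females at 24 against 16 months, from 3 to 6 in the female F-test, from 0 to 2 for LPS at 14 months, from 0 to 4 and 6 for the LPS response at 14 and at 24 against 3 months, from 0 to 4 in LPS mice at 24 against 3 months, from 5 to 8 for males at 24 months, from 15 to 31 (of 40) for males of the other ages, from 1 to 7 for the sex difference in aging, and from 0 to 12 (of 48) between the sexes at each age. With unadjusted p the calls over all 5647 genes grew too. They went from 161 to 398 for males at 24 against 3 months and from 102 to 338 for LPS at 14 months. For the settings that follow, the shares of all genes called are not given, so the counts of granule genes are not set against them. Robust moderation gave 1 for females at 24 against 3 months, 0 for the other ages, 0 for 24 against 16 months, 1 in the female F-test, 1 for LPS at 24 months and 0 for the sex difference. With only the groups compared in the fit there were 4 calls for females at 24 against 3 months (Ngp and Lcn2 added), 16 for the other ages, 2 for 24 against 16 months, 8 and 1 for LPS at 3 and at 24 months (the latter Mmp9, with Mpo, Elane and Lcn2 lost), 2 for the LPS response at 24 months, 23 for males of the other ages, 3 for the sex difference and 8 between the sexes. Scaling by the median ratio, or to equal library totals, gave 3 for males at 24 months and 0 for females of the other ages, and the former gave 0 for the sex difference. No trend gave 0 for females of the other ages. A pseudocount of 5 gave 2 for the LPS response at 24 months and 0 for the sex difference. A mean of at least 50, which drops Mpo, Elane and Mmp9, gave 4 (of 25) for females of the other ages and 1 (of 30) between the sexes. Libraries without values between 0 and 1 gave 0 for males at 24 months, 7 (of 24) for the other ages and 1 in the male F-test. The replicate block, whose numbers did not pair the mice (median correlation of same-numbered deviations 4.26e-05 in females, -0.00444 in males and 0.0139 in the LPS groups), gave 1 for females of the other ages and 2 for the sex difference. Leaving out each mouse in turn gave 0 to 2 for females at 24 against 3 months, 0 to 7 for the other ages, 0 to 2 for 24 against 16 months, 1 to 6 in the female F-test, 4 to 6, 0 to 0 and 0 to 3 for LPS at 3, 14 and 24 months, 0 to 3 for the LPS response at 24 months, 0 to 1 in LPS mice, 1 to 6 for males at 24 months, 9 to 15 for the other ages, 0 to 2 for the sex difference and 0 to 1 between the sexes. It reversed the log2 change with LPS at 24 months of Ltf (-0.77 to 0.66), Ngp (-0.17 to 1.18) and Camp (-0.17 to 1.13). The share of higher genes among all calls went from 54.8% to 75.7% for LPS at 3 months and from 44.0% to 71.1% at 24 months under median-ratio scaling, which moved the median change of all genes at 3 months from -0.14 to -0.03, with 5 and 3 granule genes called in each case; under equal totals it went from 74.6% to 61.6% for females at 24 months and from 71.8% to 50.1% for males at 16 months. The depth behind a value is unknown, so that values near 0 carry an error that cannot be stated.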
